A study of Mus musculus with 7 samples.

Results

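The comparison set primary Sertoli cells of wild-type mice at 4 weeks of age beside the TM4 cell line without transfection of ERM, on 1 single-colour Affymetrix array each, and asked how much of the Sertoli cell expression pattern the line carries. These were 2 of the 7 samples of the series, and the members described are the 30846 probe sets, of 45101 on the array design, that were annotated to exactly 1 gene and reached the detection floor on at least 1 of the pair of arrays. ERM is the transcription factor encoded by Etv5, and the series was built around its loss from Sertoli cells and its transfection into TM4. The other 3 arrays of the same design were used only to show how far a value held in other preparations: primary Sertoli cells labelled ERM knockout at 4 weeks, the same at 10 weeks, and TM4 with transfection of ERM. The other 2 samples, whole testis on another array design, were not used here. The labels name no strain for any mouse, no isolation method, no time in culture and no number of animals pooled for the Sertoli cells, and no passage or vector for TM4. None of the 5 arrays has a replicate, so no statistical test was possible, a count of genes past a fold describes these arrays, and neither the animals' nor the cultures' own spread is known.

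Sertoli cells line the seminiferous tubule and hold the germ cells within it. They close the blood-testis barrier with tight junctions, secrete hormones and carrier proteins, feed germ cells with lactate, take up their debris, and leave the cell cycle at puberty. The transcription factors Sox9, Wt1, Gata4 and Dmrt1 set and keep their identity. TM4 is an immortal line grown from the testes of immature BALB/c mice and is widely used as a Sertoli cell model.

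Values are probe set intensities scaled so that the trimmed mean of every array is 500. The floor is 100, and a value below it was set to the floor before a ratio was taken. Ratios are log2 of TM4 without ERM over wild-type Sertoli cells, so a negative ratio is a gene lower in the line. Where 1 of the pair lies below the floor, the ratio is a bound. A gene was represented by its brightest probe set. Other probe sets of a gene did not always run the same way, and their ratios are given for many, but not all, of the genes named. The 5 values of a gene are given in the order wild type at 4 weeks, knockout at 4 weeks and knockout at 10 weeks for Sertoli cells, then without and with ERM for TM4. Etv5 itself read 709.9, 910.1 and 995 on the Sertoli arrays and 405 and 473 on the TM4 arrays, and its 3 probe sets gave ratios from -0.81 to 0.33. The arrays labelled knockout were therefore no lower for Etv5 than the wild type on any of them, and the labels do not say which part of the gene was deleted or where these probes lie.

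The comparison covered 16916 genes that reached the floor. Of these, 1142 (6.75%) were at least 4-fold higher in the primary Sertoli cells and 902 (5.33%) were at least 4-fold higher in TM4, while 11187 (66.1%) lay within 2-fold. The split depended on the scale: with the intensities as deposited the 2 counts were 2068 and 459, so that 81.8% rather than 55.9% of the genes past 4-fold were higher in Sertoli cells, and with ratios taken relative to a list of housekeeping genes, a setting chosen after seeing the data, they were 1903 and 496 (79.3%). The median ratio over all genes was 0.08, and of the list of 14 housekeeping genes 0.54, or -0.16 with the intensities as deposited. All 3 Sertoli arrays were above both TM4 arrays for 5360 genes (31.7%), and both TM4 arrays above all 3 Sertoli arrays for 6863 (40.6%). The counts given below for gene lists are to be read beside these shares over all genes. Among genes past 4-fold the groups did not overlap for 1064 of 1142 and for 894 of 902. Correlations of log2 intensity over all non-control probe sets were 0.955 to 0.985 in the 4 pairs of like cells and 0.724 to 0.748 in the 6 pairs of a Sertoli with a TM4 array, as a description of arrays that share their probes.

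Agreement between probe sets of a gene was limited. Of the 1093 genes past 4-fold that had 2 or more probe sets at or above the floor, 678 (62.0%) had all of them in 1 direction. When a gene's ratio was taken as the mean over its probe sets, 749 and 592 genes were past 4-fold, and only 102 and 66 genes had 2 or more probe sets of which all were past it. A probe set that reads close to the floor on its brighter array cannot show a 4-fold difference. How much of the disagreement lies in such probe sets was not tested.

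**Figure D1:**
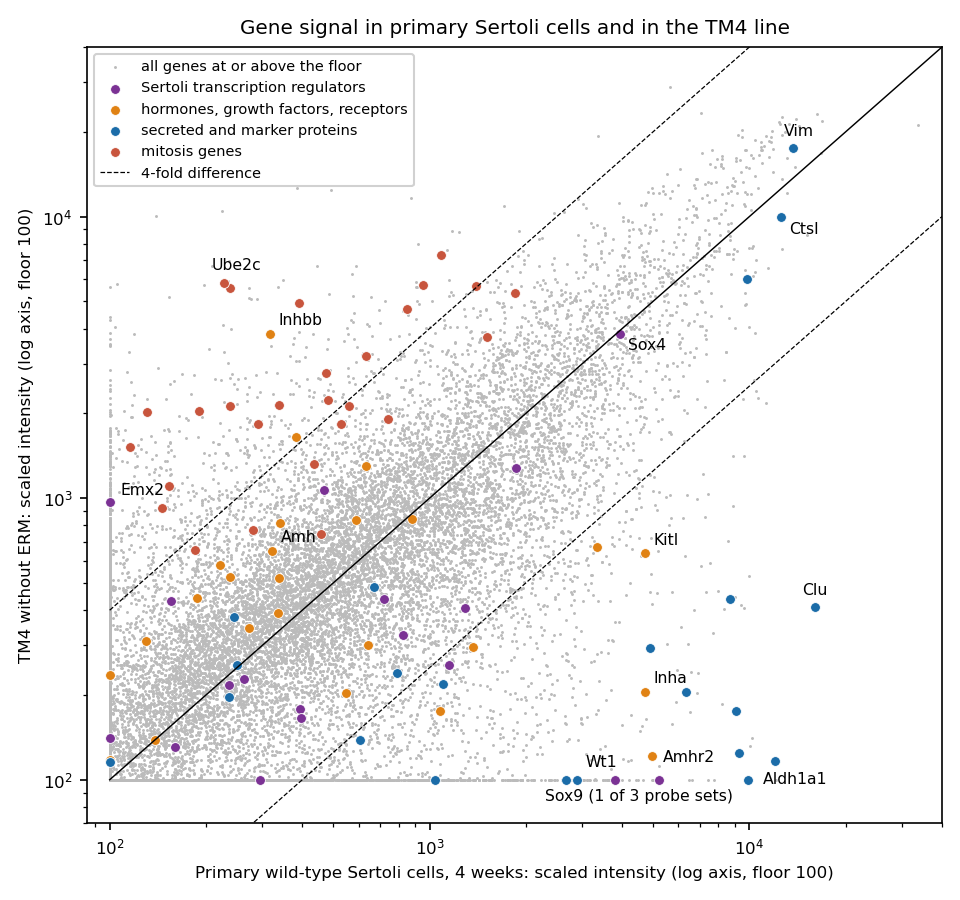
Scaled intensity of each gene in primary wild-type Sertoli cells (x axis) and in TM4 without ERM (y axis), both on log axes with values below the floor drawn at 100; grey points are all genes, coloured points are members of 4 gene lists, the solid line is equality and the dashed lines are 4-fold. Many secreted and marker proteins lie at the lower right, mitosis genes lie above the diagonal, and Vim, Ctsl and Sox4 lie near it.

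The transcription regulators of Sertoli cells showed a mixed picture. Of 18 listed regulators that reached the floor, 3 were at least 4-fold higher in Sertoli cells, 1 was at least 4-fold higher in TM4 and 7 were within 2-fold, with a median ratio of -0.62. The 3 were Sox9, Wt1 and Zfpm1, and none of them had 2 probe sets that both differed 2-fold. In 8 of the 18 all 3 Sertoli arrays were above both TM4 arrays, against 31.7% of all genes. Over all genes, 6.75% were at least 4-fold higher in Sertoli cells and 5.33% in TM4.

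Sox9, which acts downstream of Sry to direct Sertoli cell fate, gave opposite readings from its 3 probe sets. Its brightest probe set read 5220.0, 6439 and 6380.2 on the Sertoli arrays and 95.1 and 150.3 on the TM4 arrays, which is at least 52.2-fold lower in TM4 without ERM. The second read 2166, 1839 and 3002 against 2869 and 2518, a ratio of 0.41. The third read 1200.3, 2149 and 1888 against 1072 and 1062, a ratio of -0.16. Sox9 signal in TM4 was thus within the range of the Sertoli arrays on 1 probe set, less than 2-fold from the wild type on another, and near or below the floor on the brightest. The apparent loss of Sox9 rests on that 1 probe set; the cause of the disagreement was not tested.

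Wt1, a zinc finger factor needed to keep Sertoli identity, has 1 probe set, which read 3802, 3689 and 4471 in Sertoli cells and 97.4 and 92.1 in TM4. Both TM4 values were below the floor and every Sertoli value far above it, so the signal was at least 38.02-fold lower in the line. Zfpm1, which encodes the GATA cofactor FOG1, read 1149, 1611 and 1126 against 256 and 211, a 4.49-fold difference that its dimmer probe set put at a ratio of only -0.40.

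The GATA factors themselves differed less. Gata1, active in Sertoli cells at certain stages of the tubule, read 1293, 2019.6 and 864 against 406 and 454, a ratio of -1.67. Gata4 read 394, 752 and 718 against 178 and 169, with ratios of -1.15 and -0.36 for its 2 probe sets. Gata6 had ratios of -0.88, -0.71 and -0.50 over its 3 probe sets. Each of the 3 genes stayed above the floor in TM4 and none passed 4-fold.

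Dmrt1, which holds Sertoli cells back from an ovarian fate, read 395, 183 and 288 against 166 and 185, so the knockout array at 4 weeks fell within the TM4 range. Rhox5, a homeobox gene driven by androgen in Sertoli cells, read 824, 776 and 731 against 327 and 323, with no overlap and a 2.52-fold difference. Nr5a1, the steroidogenic factor SF1, read 296, 451 and 466 against 51.96 and 49.1 on 1 probe set, while on its other all 3 Sertoli values were below the floor.

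Emx2, a homeobox gene of the early urogenital ridge, ran the other way. It read 42.04, 58.9 and 54.9 in Sertoli cells, all below the floor, and 973 and 1291 in TM4, which is at least 9.73-fold higher in TM4 without ERM. Cbx2, a Polycomb protein needed for testis determination, had a ratio of 1.47 and a second probe set at 0.59, and Zfpm2, which encodes FOG2, had 1.19 and 0.35. Sox4, expressed in the early gonad, read 3944, 4675 and 5225 against 3838 and 5093 on its brightest probe set, but the 7 of its probe sets that reached the floor ran from -4.19 to 1.98.

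**Figure D2:**
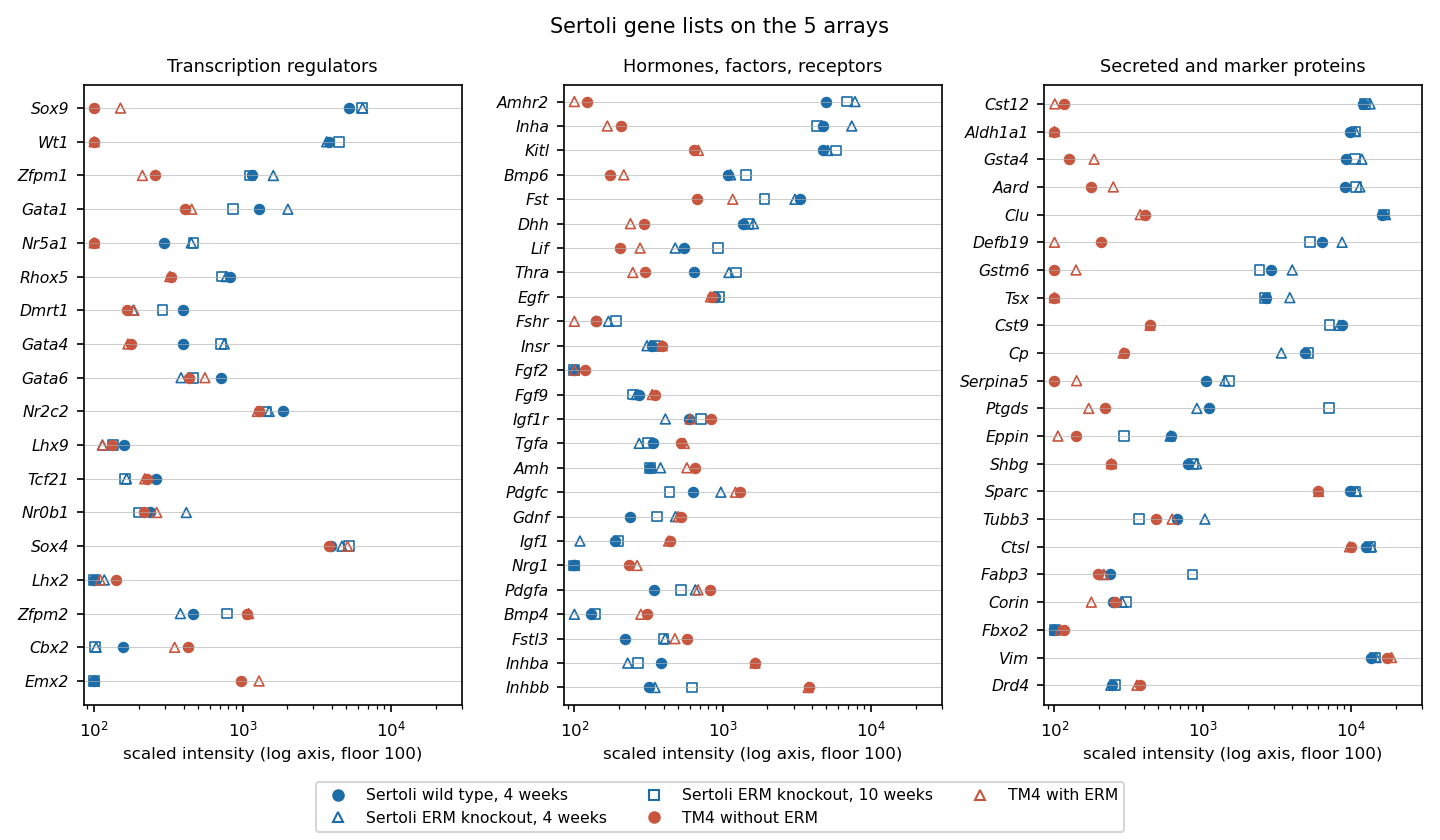
Scaled intensity on the 5 arrays of the members of 3 Sertoli lists that reached the floor on at least 1 of the pair. The axis is logarithmic, with values below the floor drawn at 100, and each row is 1 gene, ordered by ratio. Blue marks Sertoli cells and red marks TM4, and filled circles are the pair compared. Blue and red points stand far apart for the upper rows of each panel (Sox9 by its brightest probe set, Amhr2, Cst12) and cross over for the lower rows (Emx2, Inhbb).

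**Figure D3:**
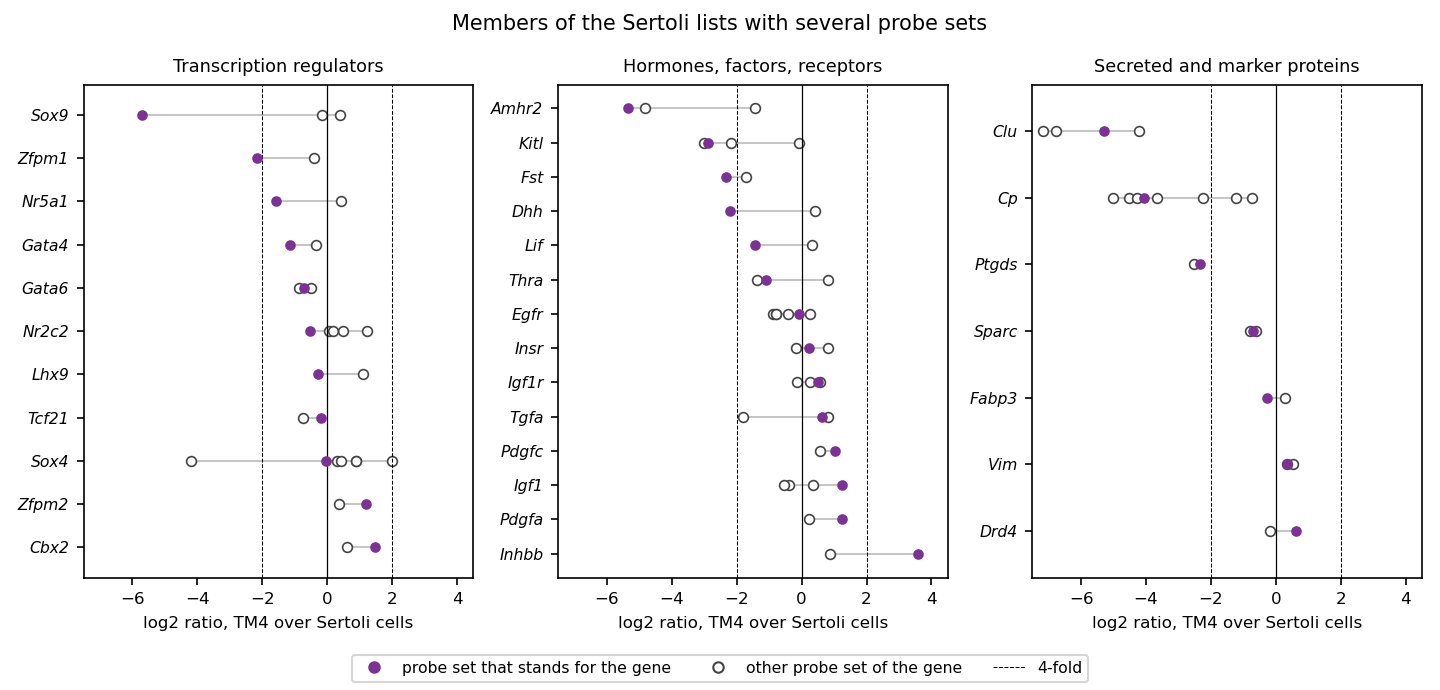
Ratio of each probe set (x axis, log2 of TM4 without ERM over wild-type Sertoli cells) for the members of the same 3 lists with 2 or more probe sets at or above the floor; the filled point is the probe set that stands for the gene, open points are its other probe sets and dashed lines mark 4-fold. The 4 probe sets of Clu all lie below -4, whereas 2 of the 3 for Sox9 lie close to 0.

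The hormones, growth factors and receptors moved in both directions. Of 25 genes, 6 were at least 4-fold higher in Sertoli cells (Amhr2, Inha, Bmp6, Kitl, Fst and Dhh) and 2 were at least 4-fold higher in TM4 (Inhbb and Inhba). The median ratio was 0.35, and its sign depended on the scale, since it was -0.28 with intensities as deposited and -0.19 relative to housekeeping genes. Both TM4 arrays were above all Sertoli arrays for 13 of the 25, against 40.6% of all genes. The reverse held for 9, against 31.7%. At least 4-fold differences were found in 6.75% of all genes toward Sertoli cells and 5.33% toward TM4.

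The subunits of inhibin and activin differed in opposite directions. Inhibin, the Sertoli hormone that holds back pituitary FSH, joins the alpha subunit of Inha to a beta subunit of Inhba or Inhbb, and activins are made of beta subunits alone. Inha read 4717, 7405 and 4320.4 in Sertoli cells and 206 and 167 in TM4, a 22.9-fold lower signal in the line on its 1 probe set. Inhbb read 318, 349.6 and 619 against 3833 and 3766, 12.1-fold higher in TM4 without ERM, and its second probe set was also higher there, at a ratio of 0.88. Inhba read 382, 229 and 269.9 against 1646 and 1649.8, 4.31-fold higher in TM4. For all 3 subunits the 2 kinds of cell did not overlap. Fst, whose product follistatin binds activin, was on the side of Inha at 3328, 3069 and 1913 against 669 and 1168, with ratios of -2.31 and -1.72 for its 2 probe sets. Fstl3, a related activin-binding protein, had a ratio of 1.39 with no overlap.

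The promoters of Inha and Inhbb are shown because these subunits pair in 1 hormone and yet differed oppositely, and those of Dhh, Cst9, Ptgds and Rhox5 because these genes were brighter in Sertoli cells by the probe set that stands for them. Each is 250 bases before to 50 after the first listed start of the gene in RefSeq's GRCm38.p6 annotation, 5′ to 3′ on the strand of the gene, with matches on either strand to 6 motifs in capitals: GATAA (GATA factors), ACAAT (SOX factors), AAGGTCA (nuclear receptors), TGACGT (cyclic AMP response), TGAGTCA (AP-1) and CACGTG (E-box). They lie at chr1:75507359-75507658 (plus strand), chr1:119422199-119422498 (minus strand), chr15:98898491-98898790 (minus strand), chr2:148834897-148835196 (plus strand), chr2:25469700-25469999 (minus strand) and chrX:37754358-37754657 (plus strand).
Inha: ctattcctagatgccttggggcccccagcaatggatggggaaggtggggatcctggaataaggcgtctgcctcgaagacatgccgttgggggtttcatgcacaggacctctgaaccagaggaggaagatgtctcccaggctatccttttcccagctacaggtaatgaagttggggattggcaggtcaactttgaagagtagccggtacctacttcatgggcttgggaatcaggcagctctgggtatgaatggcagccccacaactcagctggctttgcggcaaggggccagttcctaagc
Inhbb: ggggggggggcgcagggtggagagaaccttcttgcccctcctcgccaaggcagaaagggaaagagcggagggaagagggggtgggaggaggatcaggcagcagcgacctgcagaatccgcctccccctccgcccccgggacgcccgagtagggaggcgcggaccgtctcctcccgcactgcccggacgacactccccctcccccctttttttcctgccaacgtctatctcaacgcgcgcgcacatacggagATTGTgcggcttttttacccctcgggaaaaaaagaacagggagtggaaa
Dhh: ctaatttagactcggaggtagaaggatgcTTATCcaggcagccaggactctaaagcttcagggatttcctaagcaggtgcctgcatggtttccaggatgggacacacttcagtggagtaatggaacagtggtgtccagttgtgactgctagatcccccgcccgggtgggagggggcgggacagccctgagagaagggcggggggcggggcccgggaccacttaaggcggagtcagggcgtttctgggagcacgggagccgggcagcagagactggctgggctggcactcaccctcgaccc
Cst9: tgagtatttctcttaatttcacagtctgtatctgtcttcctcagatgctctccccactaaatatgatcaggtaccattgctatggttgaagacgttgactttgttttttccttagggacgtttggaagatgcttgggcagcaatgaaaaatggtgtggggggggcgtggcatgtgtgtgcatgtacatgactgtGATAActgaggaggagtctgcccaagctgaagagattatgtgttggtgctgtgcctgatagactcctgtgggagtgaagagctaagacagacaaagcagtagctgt
Ptgds: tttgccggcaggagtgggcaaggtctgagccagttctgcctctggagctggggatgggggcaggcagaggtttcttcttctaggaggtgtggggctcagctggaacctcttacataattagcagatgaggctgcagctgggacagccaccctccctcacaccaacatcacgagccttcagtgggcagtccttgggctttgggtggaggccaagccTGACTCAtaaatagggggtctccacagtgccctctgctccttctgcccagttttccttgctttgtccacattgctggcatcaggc
Rhox5: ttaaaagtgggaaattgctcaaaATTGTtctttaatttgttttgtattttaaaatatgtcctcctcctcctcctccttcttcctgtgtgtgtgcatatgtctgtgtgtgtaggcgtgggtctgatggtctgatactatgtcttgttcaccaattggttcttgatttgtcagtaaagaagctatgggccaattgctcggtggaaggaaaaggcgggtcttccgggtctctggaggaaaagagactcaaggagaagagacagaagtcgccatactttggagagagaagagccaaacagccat

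The window of Inha held none of the 6, those of Inhbb and Rhox5 held ACAAT in reverse, Cst9 held GATAA, Dhh held it in reverse and Ptgds held TGAGTCA in reverse. GATAA was found in 18.4% of the 896 promoters available for genes at least 4-fold higher in Sertoli cells, in 17.9% of 698 for genes at least 4-fold higher in TM4, in 18.4% of 13457 for all genes at or above the floor and in 25.8% of all 27025 in the table. ACAAT was found in 21.5%, 25.1%, 23.1% and 31.6% of the same sets. In the same order of sets, TGACGT stood in 7.25%, 7.16%, 10.3% and 7.64%, TGAGTCA in 5.36%, 4.30%, 4.21% and 5.17%, and AAGGTCA in 4.02%, 5.16%, 3.73% and 4.66%. CACGTG stood in 10.2%, 6.16%, 9.20% and 7.24%. No motif searched lies within another, but matches side by side can share end letters, and a match is a run of letters, not a site shown to be bound.

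Among the other ligands and receptors, Amhr2, the receptor for anti-Müllerian hormone, read 4959.9, 7789 and 6902 in Sertoli cells and 122 and 98.8 in TM4. All 3 of its probe sets were lower in the line, with ratios from -5.35 to -1.45. The gene for the hormone itself, Amh, which falls silent at puberty, read 322, 381 and 323 against 651 and 573, 2.02-fold higher in TM4 and with no overlap.

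Kitl, the stem cell factor that supports spermatogonia, read 4732, 5107 and 5784 against 636 and 686, and 3 of its 4 probe sets were lower in TM4 by ratios of -3.01, -2.90 and -2.18. The fourth was at -0.09. Bmp6, a bone morphogenetic protein, read 1079.9, 1130.0 and 1438 against 175 and 215. Dhh, the hedgehog ligand that instructs Leydig and peritubular cells, read 1363, 1609.5 and 1481 against 295 and 239 on its brighter probe set, but on the other TM4 was within the Sertoli range or slightly above it, at 597 and 704 against 447, 700.0 and 489.

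Gdnf, which sustains spermatogonial stem cells, was not lower in the line. It read 238, 480.2 and 359 in Sertoli cells and 525 and 502 in TM4, a ratio of 1.14. Fshr, the receptor for FSH, was near the floor everywhere, at 139, 169.6 and 189.9 and 139 and 74.7, so its level in either cell was barely measured. Egfr (-0.07), Fgf9 (0.35) and Insr (0.23) had ratios within 2-fold.

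The secreted, transport and marker proteins were mostly lower in the line. Of 22 genes that reached the floor, 13 were at least 4-fold higher in Sertoli cells and none was 4-fold higher in TM4. The median ratio was -2.86, and 8 of the 22 lay within 2-fold. All 3 Sertoli arrays were above both TM4 arrays for 16 of the 22, against 31.7% of all genes. Differences of at least 4-fold were found in 6.75% of all genes toward Sertoli cells and 5.33% toward TM4. In 10 of the 13 the gene has only 1 probe set, and in the other 3 all probe sets ran the same way.

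Clu, the secreted chaperone clusterin, read 16016, 17012 and 16613 in Sertoli cells and 409.6 and 378 in TM4, 39.1-fold lower, and its 4 probe sets gave ratios from -7.17 to -4.21. Cst12 and Cst9, testis members of the cystatin family of protease inhibitors, were 103-fold and 19.8-fold lower in TM4. Cst12 read 12062, 13406 and 12332 against 117 and 101, and Cst9 8689, 8306 and 7148 against 438 and 440.5. On both TM4 arrays Cst12 read close to the floor, and a dimmer probe set of Clu read below it at 85.5 and 35.6.

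Aldh1a1, a retinal dehydrogenase that makes retinoic acid, read 9886, 10649 and 10695 against 44.2 and 11.5, at least 98.9-fold lower in the line. Aard, an alanine- and arginine-rich protein gene of Sertoli cells, read 9051, 11432 and 10753 against 175 and 249, and Defb19, a beta-defensin, 6323, 8679 and 5297 against 204 and 69.4. Ceruloplasmin, a copper carrier encoded by Cp, was lower in TM4 on all 8 of its probe sets, from -5.02 to -0.72. Tsx, an X-linked gene of Sertoli and germ cells, and Serpina5, a protease inhibitor, were below the floor in TM4 without ERM, at least 26.7-fold and 10.4-fold lower.

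Ptgds, the prostaglandin D synthase of the tubule, read 1099, 911 and 7089 against 218 and 170.1. Both of its probe sets were past 4-fold, and the 10-week knockout array stood far above the 2 arrays at 4 weeks. Shbg, which encodes the androgen-binding protein, was 3.32-fold lower in TM4 at 792, 908 and 861 against 239 and 242.

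Among the 8 genes of this list within 2-fold, Ctsl, Sparc and Vim were bright in both cells. The others were Corin, Fabp3, Drd4, Tubb3 and Fbxo2, all dimmer. Ctsl, a cathepsin secreted at set stages of the tubule, read 12575, 13685 and 13433 in Sertoli cells and 9975 and 9745 in TM4. Sparc, a matrix glycoprotein, read 9797, 10881 and 10604 against 5999 and 6033, and its 3 probe sets gave ratios of -0.60 to -0.81. Vim, the intermediate filament of both cells, read 13642, 14698 and 14384 against 17444 and 18683. Ctsl and Sparc had ratios of -0.33 and -0.71. These were -1.04 and -1.41 with the intensities as deposited and -0.86 and -1.16 under quantile normalization, so Sparc was past 2-fold under both. Vim had 0.35, which turned to -0.35 as deposited and to -0.27 under quantile normalization. The trimmed mean as deposited was 299 for the Sertoli array and 183 for TM4, which is the gap that scaling removed.

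Junction genes were lower in TM4 in part. Of 30 genes of the blood-testis barrier and its junctions, 10 were at least 4-fold higher in Sertoli cells, 1, the polarity protein gene Patj, was at least 4-fold higher in TM4 and 14 lay within 2-fold, with a median ratio of -0.63. All 3 Sertoli arrays were above both TM4 arrays in 20 of the 30, against 31.7% of all genes. Past 4-fold toward Sertoli cells and TM4 were 6.75% and 5.33% of all genes. Cldn11, the claudin that forms the strands of the barrier, read 6894, 8662 and 7957 against 239.9 and 252, 28.7-fold lower on 1 probe set. Jam2, a junctional adhesion molecule, was lower on all 5 probe sets, from -5.17 to -0.31. Nectin2, which joins Sertoli cells to each other and to spermatids, read 4894, 6918 and 6327 against 466 and 488, with its second probe set at -1.02.

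Occludin, encoded by Ocln, read 903, 1223 and 1074 against 46.2 and 2.69 on its brighter probe set and -0.30 as a ratio on the other. Pard6b, a polarity protein, had ratios of -3.06 and -2.58. The epithelial cadherin Cdh1 read 734, 1023 and 128 against 43.5 and 26.3, so that the 10-week knockout array was itself little above the floor. Dsg2, a desmosomal cadherin, passed 4-fold lower in TM4 on 2 probe sets, at -3.66 and -2.38, while the other 3 that reached the floor gave -1.26, 0.08 and 1.81.

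Debris uptake, retinoid and detoxification genes gave further differences. Of 17 genes of phagocytic uptake, 5 were at least 4-fold higher in Sertoli cells and none in TM4. The shares over all genes were 6.75% and 5.33%. Tyro3, a receptor for phosphatidylserine bridges, read 912, 1452 and 1179 against 169.8 and 173, with its other probe set at -0.50, and its ligand Pros1 read 1107, 1561 and 922 against 33.1 and 65.7. Abca1, a cholesterol exporter, was lower in TM4 on all 3 probe sets, from -5.63 to -1.65. Gulp1, an adaptor of engulfment, passed 4-fold by its brightest probe set, but its 3 probe sets ran from -2.97 to 1.70. The scavenger receptor Cd36 read 1379, 185 and 373 against 65.5 and 14.6 and thus was high on the wild-type array only; its other probe sets gave -2.83 and 0.23.

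Of 16 retinoid genes, 3 were at least 4-fold higher in Sertoli cells, namely Aldh1a1, Aldh1a2 and the retinal reductase Dhrs3, and none in TM4. The median over 27 genes of glutathione conjugation, detoxification and metal binding was -1.90. All 3 Sertoli arrays were above both TM4 arrays in 22 of them, against 31.7% of all genes. In TM4 1 of the 27, the peroxidase gene Gpx8, was at least 4-fold higher, against 5.33% of all genes. In Sertoli cells 13 of the 27 were, against 6.75%. The glutathione transferases led these: Gsta2 read 7742, 9344 and 6297 against 20.6 and 67.8, Gsta4 9278, 11805 and 10588 against 125 and 185 and Gsta3 4259, 4416 and 4569 against 118 and 65.4. Transferases of 1 family are alike in sequence, and how far their probe sets tell them apart was not tested.

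Glucose and lactate genes as a list leaned slightly toward TM4, with a median of 0.49 that became -0.21 with the intensities as deposited. Of its 22 genes, 2 were at least 4-fold lower in the line and 1, Pfkp, was at least 4-fold higher. The shares over all genes were 6.75% and 5.33%. Slc2a3, a glucose transporter, read 3739, 2936 and 813 against 311 and 299, with ratios from -3.75 to -1.51 over 4 probe sets. Its 10-week knockout value was thus far below those at 4 weeks. Ldhb, the heart-type lactate dehydrogenase subunit, had ratios from -3.56 to -2.70 over 4 probe sets. Pfkp, a phosphofructokinase of glycolysis, read 229, 128 and 107 against 1283 and 1237, with ratios of 2.48, 1.99 and 0.07 over its 3 probe sets. The glycolytic enzyme Tpi1 was 3.97-fold higher in TM4 at 2904, 3001 and 1986 against 11535 and 11909, and the lactate transporter chaperone Bsg 3.04-fold higher.

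**Figure D4:**
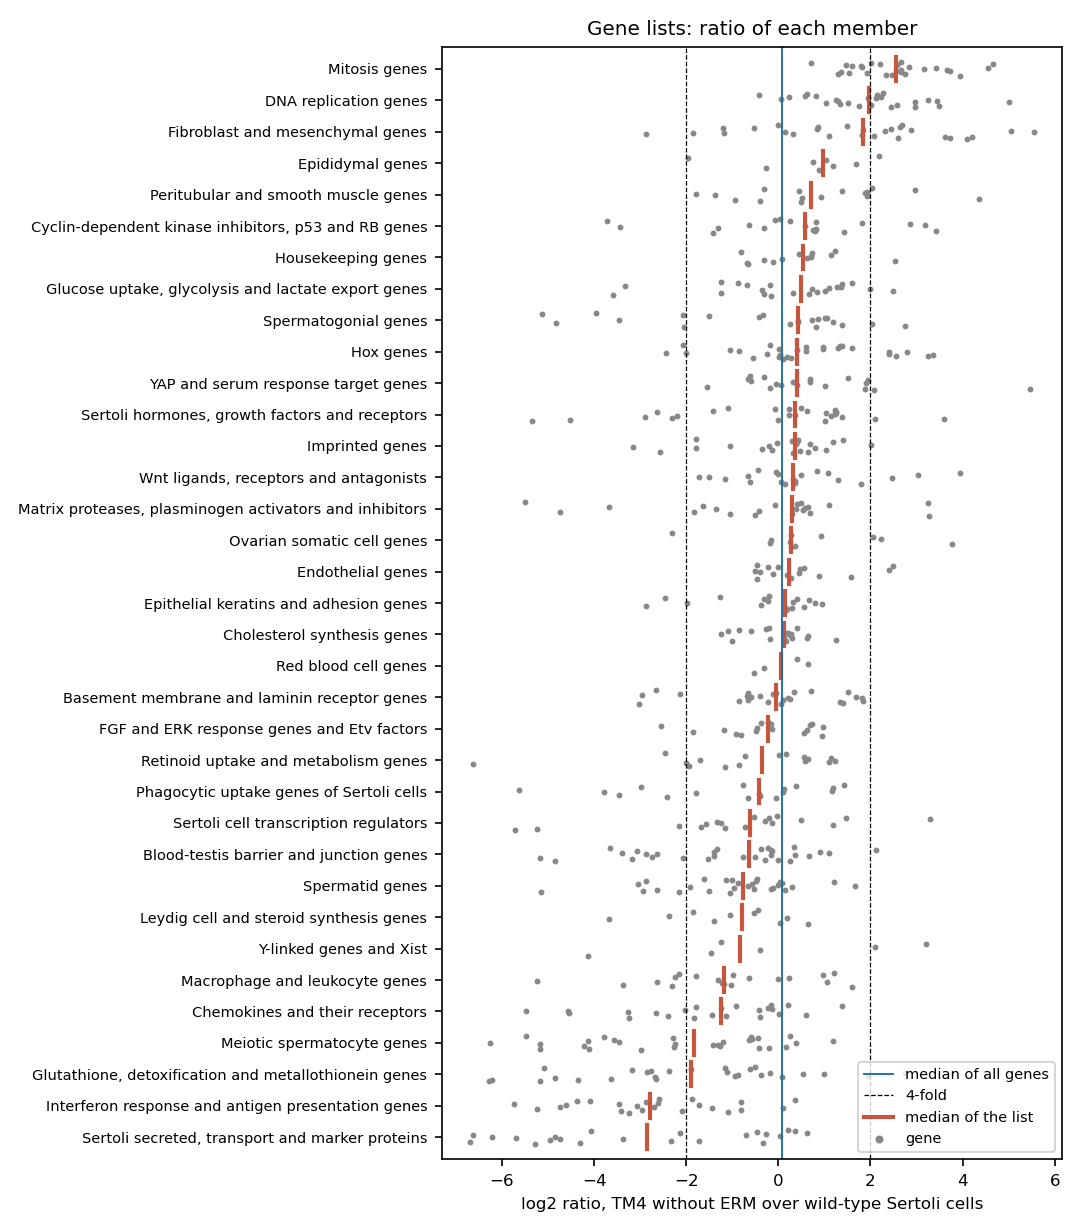
Ratio (x axis, log2 of TM4 without ERM over wild-type Sertoli cells) of each member of 35 gene lists that reached the floor. Grey points are genes, red bars list medians, the blue line the median of all genes and the dashed lines 4-fold. List medians run from -2.86 for secreted and marker proteins to 2.55 for mitosis genes, against 0.08 for all genes.

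Marker genes of other testis cells had signal on the Sertoli arrays, and their sums differed between the arrays. Of 28 spermatocyte genes, 14 were at least 4-fold higher on the wild-type Sertoli array than in TM4, among them Sycp3 of the synaptonemal complex at 4176, 2708 and 431 against 116 and 138 and the sperm lactate dehydrogenase Ldhc at 10048, 6741 and 1172 against 131 and 152. The summed intensity of the list was 40749, 28879 and 6476 on the Sertoli arrays and 4788 and 4554 on the TM4 arrays, and 11 of its 28 genes were below the floor in TM4 without ERM. Spermatid genes summed to 21548, 26626 and 11651 on the Sertoli arrays and 11188 and 11258 on the TM4 arrays, with 6 of 28 past 4-fold, and Prm2 and Tnp1, which encode sperm chromatin proteins, were among them. Of 21 spermatogonial genes, 6 were at least 4-fold higher in Sertoli cells, Ddx4, Dazl, Id4, Uchl1 and Dnmt3l among them. Ddx4 read 3497, 2124 and 268 on the Sertoli arrays, and Uchl1 2280, 2696 and 2060. Toward TM4, 2 passed 4-fold, Sall4 and Gfra1, and the list median was 0.42. Both TM4 arrays were above all Sertoli arrays in 10 of the 21, and the reverse held in 6. Over all genes these shares were 40.6% and 31.7%, and 6.75% and 5.33% were past 4-fold toward Sertoli cells and TM4. Gfra1, the GDNF receptor, read 169, 129.7 and 146 against 1128 and 1029, with its other probe set at 0.31.

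The 10-week knockout array had the lowest spermatocyte sum of the Sertoli arrays; it also differs from the wild type in genotype and age. The sum over the secreted and marker proteins was 122816, 137575 and 133705 on the Sertoli arrays and 37503 and 38598 on the TM4 arrays. On the array without ERM, Vim (17444), Ctsl (9975) and Sparc (5999) made up most of the sum of this list. With the 10-week array in place of the wild type, the median ratio of that list was -3.91, of the regulators -0.44 and of the junction genes -0.86, against -2.86, -0.62 and -0.63 with the wild type. The part of germ cells in the ratios was not tested beyond these values. Of the 1142 genes at least 4-fold higher in Sertoli cells, 880 were so against the 10-week array too and 764 (66.9%) against each of the 3 Sertoli arrays. Fewer cells of a type and less RNA per cell cannot be told apart on these arrays.

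Macrophage genes summed to 16094, 6741 and 10685 on the Sertoli arrays and 5768 and 5726 on the TM4 arrays, and 6 of 19 were at least 4-fold higher in wild-type Sertoli cells, such as the lysosomal protease Ctss at 3801, 468 and 1829.7 against 62.1 and 5.800 and Cd68 at 1034, 362 and 388 against 99.3 and 85.5. In 5 of the 19 both TM4 arrays were above all Sertoli arrays, against 40.6% of all genes. The reverse held in 9, against 31.7%, and the list median was -1.18. At least 4-fold higher were 6.75% of all genes in Sertoli cells and 5.33% in TM4. The macrophage sum was highest on the wild-type array, but Mrc1 was not, at 470, 513 and 360 against 63.8 and 72.6. Of 23 genes of chemokines and their receptors, 8 were at least 4-fold higher in wild-type Sertoli cells and none in TM4. Cxcl5 read 8235, 893 and 2714 against 185 and 239 and Ccl2 8863, 1141 and 5003 against 935 and 1194, both highest on the wild-type array and lowest of the Sertoli arrays in the 4-week knockout. Mmp12, a macrophage elastase, read 2681, 211 and 601 against 34.99 and 71.03, and Serpinb2, a plasminogen activator inhibitor, 4491, 331 and 1603 against 30.9 and 35.02. The part of macrophages in these values was not tested.

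Leydig cell genes summed to 8438, 8683 and 12951 on the Sertoli arrays and 3752 and 3853 on the TM4 arrays. Star, which carries cholesterol into mitochondria, read 1286, 2098 and 2896 against 61.8 and 81.8 and was lower in TM4 on all 3 probe sets, while the side-chain cleavage enzyme Cyp11a1 was not, at 491, 669 and 1182 against 772 and 654. The 10 genes of the list had a median of -0.79, and the part of Leydig cells in it was not tested.

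**Figure D5:**
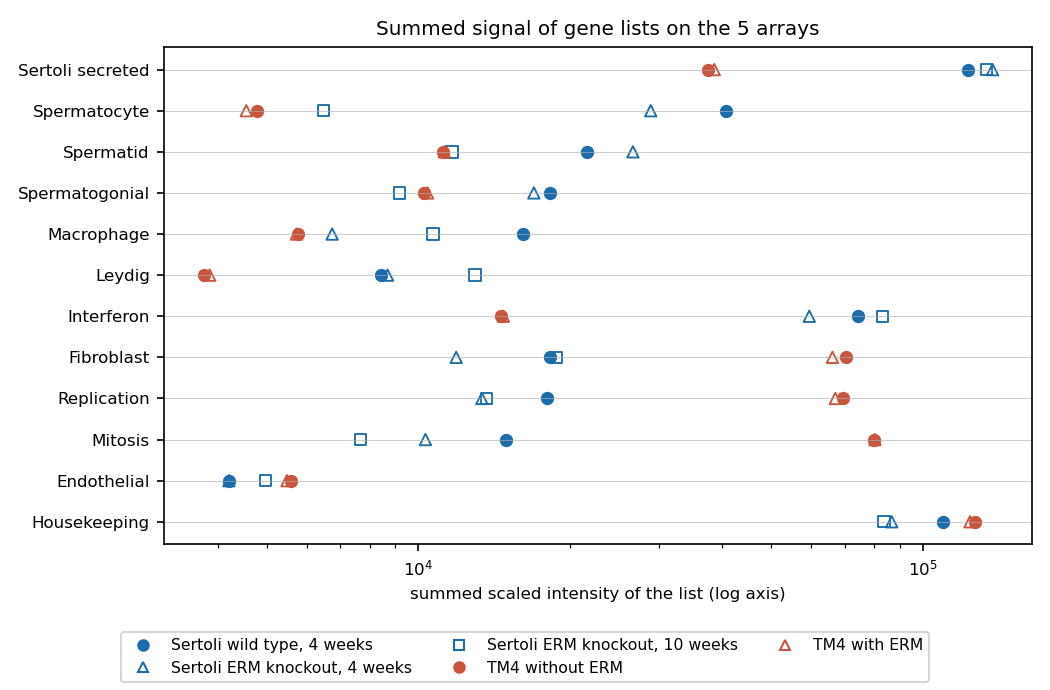
Summed scaled intensity (log axis) of 12 gene lists on each of the 5 arrays; blue marks Sertoli cells, red marks TM4 and filled circles the pair compared. The spermatocyte sum falls from 40749 on the wild-type Sertoli array to 6476 on the 10-week knockout array while the Sertoli secreted sum is 122816 and 133705 on them.

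Interferon response and antigen presentation genes were another group lower in the line. Of 24 genes, 16 were at least 4-fold higher in Sertoli cells, against 6.75% of all genes. None was so in TM4, against 5.33%, and the list median was -2.79. In 21 of the 24 all 3 Sertoli arrays were above both TM4 arrays, against 31.7% of all genes. The list summed to 74510.5, 59579.5 and 83143 on the Sertoli arrays and 14563 and 14734 on the TM4 arrays. This sum was highest at 10 weeks. Which cells of the preparation gave this signal was not tested. Gbp2, an interferon-induced GTPase, read 5315, 4528 and 6730.0 against 25.1 and 28.9 and both of its probe sets were past 4-fold. Ifit3, an RNA-binding antiviral protein, read 6515, 3444 and 6201 against 174 and 230.0, and Usp18, which removes the ubiquitin-like modifier ISG15, 2453, 1489 and 2940.1 against 87.4 and 97.7.

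The class I heavy chain gene H2-K1 read 7960.1, 8383 and 9315 against 468 and 447, but its 4 probe sets ranged from -4.09 to -0.30 and the 9 of H2-D1 from -5.20 to 1.37. These genes are highly variable in sequence between mouse strains. The common light chain B2m stayed within 2-fold, at 11424, 9020.4 and 12599 against 6558 and 7069.

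The genes brighter in TM4 were led by cell division. All 27 mitosis genes were higher on both TM4 arrays than on any Sertoli array, 18 of them at least 4-fold in the pair compared, with a median ratio of 2.55. Among all genes, 40.6% were higher on both TM4 arrays than on any Sertoli array and 5.33% were at least 4-fold higher in TM4. Ube2c, which feeds the anaphase-promoting complex, read 228, 194 and 109.8 in Sertoli cells and 5809.8 and 6023 in TM4, 25.5-fold higher. Mki67, the antigen of cycling cells, read 131, 99.8 and 32.8 against 2019 and 1747, and Aurkb, a mitotic kinase, was 13.2-fold higher with both probe sets at 3.72. The Sertoli arrays were near or below the floor for Mki67 and Aurkb. Cenpa, a centromeric histone, passed 4-fold by its brightest probe set alone, with the others at -0.46 and 0.44.

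Replication genes followed, with 13 of 26 at least 4-fold higher in TM4, none in Sertoli cells, and a median of 1.98. Rrm2, a subunit of ribonucleotide reductase, read 209, 111 and 77.6 against 6696 and 7058, with ratios of 4.84 to 5.23 over 3 probe sets. Mcm5, part of the replicative helicase, read 589.7, 241 and 171 against 6653 and 5903, and the licensing factor Cdt1 was 10.96-fold higher. No member of either list was at least 4-fold lower in the line, against 6.75% of all genes. The share of all genes at least 4-fold higher there was 5.33%.

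Among regulators of the cell cycle, Ccnd1, a D-type cyclin, read 576, 427 and 494 against 5241 and 6469, higher in TM4 on all 3 probe sets. Ccnd2 read 550.4, 391 and 422 against 4005 and 3528, higher on all 7. Cdkn2a, which encodes the inhibitors p16 and p19Arf and is lost in many immortal lines, read 90.04, 35.3 and 71.5 against 1079 and 1191, at least 10.8-fold higher in TM4. Rb1, the retinoblastoma protein gene, read 2779, 4002 and 3357 against 256 and 276 on its brighter probe set, but the other gave a ratio of 0.29 with all 5 values between 129.9 and 237. Trp53inp1, induced by p53, was at least 13.3-fold lower in TM4 by 1 probe set and -0.61 by the other.

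Matrix and mesenchymal genes were the other group brighter in TM4. Of 27 fibroblast genes, 13 were at least 4-fold higher in TM4 and 1, Dcn, was at least 4-fold higher in Sertoli cells by 1 of its probe sets. The median was 1.84, and both TM4 arrays were above all Sertoli arrays for 21, against 40.6% of all genes. At least 4-fold higher were 5.33% of all genes in TM4 and 6.75% in Sertoli cells. Fn1, fibronectin, read 224, 207 and 186 against 10450.3 and 10115, 46.7-fold higher, with a second, dimmer probe set at 1.35. Col1a1 read 349, 455 and 365 against 5974 and 5318 and Col1a2 877, 700.4 and 687 against 11632 and 9988. S100a4, a calcium-binding protein of motile mesenchymal cells, read 384, 252 and 352 against 12644 and 12307. Pdgfra, a receptor of interstitial and mesenchymal cells, went the other way at 2739.7, 1567 and 2972 against 759.5 and 769.6.

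Contractile genes of peritubular and smooth muscle cells had a median of 0.71, with 3 of 16 at least 4-fold higher in TM4 (Tagln, Cnn2 and Csrp1) and none in Sertoli cells. Among all genes, 5.33% were at least 4-fold higher in TM4 and 6.75% in Sertoli cells. Tagln, which binds actin, read 141, 75.7 and 135 against 2907 and 3195, 20.6-fold higher. Ankrd1, a target of YAP, read 100.4, 96.9 and 217 against 4416 and 5169 with both probe sets past 4-fold. It was the highest of 19 YAP and serum response target genes, of which 2 passed 4-fold toward TM4 and 11 lay within 2-fold. The other of the 2 was Ccn1, whose 4 probe sets ran from -0.85 to 2.08. The median of that list was 0.40, and its lowest value under an alternative was -0.31. Given the shares over all genes, no direction is read from the 4-fold counts of the YAP list or of the proteases that follow. Of 21 matrix proteases, plasminogen activators and inhibitors, 2 were at least 4-fold higher in TM4, Mmp2 (9.61-fold) and the urokinase gene Plau (9.54-fold). The 3 at least 4-fold higher in Sertoli cells were Mmp12, Serpinb2 and the metalloprotease inhibitor Timp3, which read 1274, 1437 and 3163 against 76.1 and 111 and was lower in TM4 on all 4 probe sets, from -3.67 to -1.51.

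Basement membrane genes as a list had a median of -0.05, or -0.64 with intensities as deposited, and 15 of 25 within 2-fold. Lama1, the laminin chain of the tubule's basement membrane, read 845, 1428 and 948 against 104 and 91.5, 8.098-fold lower in TM4. Keratins and epithelial adhesion genes had a median of 0.15, which was -0.53 with intensities as deposited, and 14 of 18 were within 2-fold.

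Genes of ovarian somatic cells, against which Sertoli identity is held, included 3 of 11 at least 4-fold higher in TM4 and 1, Fst, in Sertoli cells. Esr1, the estrogen receptor alpha, was higher in TM4 on all 3 probe sets, with ratios from 1.39 to 3.78 and values of 84.5, 77.7 and 108 against 1372 and 1269.7 on the brightest. Hsd17b1, an estradiol-forming enzyme, read 276, 343 and 329.7 against 1152 and 1381. Nr2f2, an orphan receptor of the gonadal stroma, was higher by its brightest probe set, but its 6 ranged from -1.39 to 2.22. The median of the list was 0.28, which became -0.42 with intensities as deposited. For the 4-fold counts, the shares over all genes were 5.33% toward TM4 and 6.75% toward Sertoli cells.

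Hox genes, which mark position along the body axis, had 6 of 29 at least 4-fold higher in TM4 and 3 (Hoxb4, Hoxb5 and Hoxd13) in Sertoli cells. The shares over all genes were 5.33% and 6.75%. Hoxa11 read 154, 162 and 185 against 1583 and 1391, and Hoxa10 114, 79.3 and 58.2 against 1083 and 1423 with a dimmer probe set at 0.39. Hoxb5 ran the other way at 539.8, 717 and 647 against 39.4 and 75.5. Among Wnt genes, the antagonist Dkk2 read 37.9, 3.91 and 38.7 against 1530.2 and 1538, at least 15.3-fold higher in TM4, and 3 of 21 (Dkk2, Sfrp1 and Fzd2) passed 4-fold on that side with none on the other. The probe sets of Sfrp1 ran from -0.55 to 3.03 and those of Fzd2 from 0.12 to 3.10.

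The 20 genes on each side with the largest ratios were taken among those with 2 or more probe sets, all at least 2-fold the same way, and no overlap over the 5 arrays. Those higher in Sertoli cells included, besides Clu, Amhr2, Abca1, Gbp2 and Gsta3, the lysosomal glycoprotein gene Creg1 at 7404, 9204 and 7645 against 99.1 and 178 and Hpgd, which breaks down prostaglandins, at 4993, 4629 and 6451 against 28.6 and 48.9. Tmem255a read 6454, 6815 and 7462 against 34.2 and 14.8, and Bicc1, an RNA-binding protein, 4025, 4684 and 5220.3 against 119 and 117. Slc30a1, a zinc exporter, Gnai1, an inhibitory G protein subunit, and Gprc5b, an orphan receptor, were also among them, at ratios of -5.03, -4.96 and -5.08. Each of these genes differed by less than 2-fold between the 3 Sertoli arrays. The same 20 held Ldhc, Fabp9, Tnp1 and Ropn1l, which are genes of germ cells. These read 1172, 306, 1072 and 342 on the 10-week array against 10048, 3676, 3580.1 and 3039.7 on the wild type. The 10-week array also differs in genotype and age, and the part of germ cells in these values was not tested.

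On the TM4 side the 20 were led by Thbs2, a matricellular thrombospondin, at 139, 53.9 and 59.4 against 10049 and 8646, by Fn1 and by Ankrd1. Sema3a, a secreted guidance cue, read 34.9, 77.8 and 16.8 against 4298 and 4065, and E2f8, a repressor of the cell cycle, 37.1, 41.7 and 22.8 against 3511 and 4198. Cdh11, a mesenchymal cadherin, read 119, 97.3 and 424 against 3841 and 3085, and Ogn, a small leucine-rich proteoglycan, 197, 26.4 and 144 against 5707 and 6201. Serpinh1, the collagen chaperone HSP47, read 493, 223 and 472 against 12422 and 12225. The collagens Col1a1, Col1a2 and Col5a2 and Esr1 were in the same 20. Of the 902 genes at least 4-fold higher in TM4, 784 (86.9%) were so against each of the 3 Sertoli arrays.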

How the data were processed

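RNA of 7 mouse samples was measured on single-colour Affymetrix arrays, and 2 samples make up the comparison. The values deposited by the authors are linear probe set intensities, none below 1. The software and scaling: not given in the sources used here. Detection calls were not used. No header states a genome build.

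To give the arrays a common scale, the mean over non-control probe sets, trimmed at percentiles 2 and 98, was set to 500 on each, and the floor to 0.2 of that. Of 45101 probe sets, 64 controls, 932 naming several genes and 9160 naming none were left out; of 34945 left, for 18193 genes, 34741 matched by gene identifier a RefSeq gene table of GRCm38.p6, which changed no symbol. For each gene, the probe set brightest on average over the 5 arrays of the design was taken. The log2 ratio and fold computed from the deposited intensities carry no p-value, since each group is 1 array. A fold against a value below the floor is a bound. The spread between arrays of one cell type is unknown. Between probe sets of 1 gene the SD of the ratio was 0.46 (log2, over 1653 genes with 2 or more probe sets above 500 on both arrays). The number of arrays limits the precision.

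The members and the 35 gene lists were chosen with earlier results of these data known. Named were all members of 3 Sertoli lists, up to 6 of each other list by size of ratio, the 20 largest differences on each side with the brighter array at 500 or above, 2 or more probe sets all at least 2-fold the same way and no overlap over the 5 arrays, and Etv5. Genes named to complete a count (Dcn, Patj, Sall4, Hoxb4, Hoxd13, Gpx8) were chosen after their values were seen. Alternatives were the intensities as deposited, quantile normalization, centring, other floors, other ways to combine probe sets, the other arrays in place of the pair, and 2-fold. The counting was tested on simulated data. Promoters came from RefSeq (GRCm38.p6). Tables were computed with pandas 2.3.3 and numpy 2.4.6 in Python 3.11.15 and drawn with matplotlib 3.10.9.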

Additional observations from a re-analysis of the deposited data

How the results depend on the processing

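Of 171 named genes past 4-fold, 101 stayed past it under every alternative run for them, and 1849 of 1856 ratios under an alternative kept their direction. The 7 that turned were Gulp1 at 1.03, Oaz3 at 0.25, Col18a1 at 0.33, Ccn1 at -0.85 and Plagl1 at 0.41 without probe sets matching several transcripts, Cd53 at 0.75 against the 4-week knockout and Fcgr3 at 0.49 against the 10-week knockout. The counts of genes past 4-fold higher in Sertoli cells and in TM4 were 2068 and 459 as deposited, 1903 and 496 relative to housekeeping genes, 749 and 592 as means over probe sets, 3011 and 2718 at 2-fold, and 102 and 66 with all of 2 or more probe sets past 4-fold; with the floor raised to 0.4 times the trimmed mean the second count was 553. The medians of regulators, hormones, secreted proteins and junction genes were -1.24, -0.28, -3.69 and -1.34 as deposited and -1.17, -0.19, -3.40 and -1.17 relative to housekeeping genes, which was chosen after seeing the data. The secreted proteins moved to -2.33 and -2.38 with floors at 0.1 and 0.4, and to -2.12 and -3.91 against the knockouts at 4 and 10 weeks. No other count or median of these lists moved by more than 1.5 times or by the SD between probe sets. No paired analysis was possible because each group is 1 array. Signal near the floor limits all ratios of dim genes.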

Other observations

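Genes of the Y chromosome did not give 1 reading for TM4. Eif2s3y, which encodes a translation initiation factor subunit needed for spermatogonial division, read 1764, 1240.0 and 1499.8 on the Sertoli arrays and 21.9 and 19.96 on the TM4 arrays, at least 17.6-fold lower in the line on 1 probe set. Kdm5d, a histone demethylase gene, read 282, 346 and 263 against 102 and 56.7 on its brightest probe set, with the other at a ratio of 0.45. Uty read 392, 343 and 338 against 298 and 356 on 1 probe set and 408, 404 and 314 against 159 and 222 on the other, and Usp9y was higher in TM4 at 113, 92.6 and 81.4 against 484 and 457. Sry, which starts testis development, read 133, 125 and 148 against 1218 and 1533 on 1 probe set and 182, 202 and 196 against 205 and 206 on the other. Xist, transcribed from the inactive X, read 488, 165 and 216 against 205 and 208 on its brightest probe set and had a ratio of -1.86 on another. The genes thus split in both directions, and of the 6 that reached the floor 2 were at least 4-fold higher in TM4 and 1 in Sertoli cells.

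Against 6.75% of all genes at least 4-fold higher in Sertoli cells and 5.33% in TM4, the counts of the imprinted and endothelial lists are given with no direction read from them. Of 22 imprinted genes, 2 (Dlk1 and Plagl1) were at least 4-fold higher in Sertoli cells and 1 (Magel2) in TM4. Dlk1, a growth regulator of fetal tissues, read 592, 198 and 448 against 52.98 and 92.7, with its other probe set at -0.99. Of 16 endothelial genes, 2 were at least 4-fold higher in TM4, Cd34 at 183, 165 and 223 against 1021 and 1234 and Plvap at 109.8, 56.8 and 111 against 583 and 615, while the other genes of that list did not pass 4-fold. Cholesterol synthesis genes had none of 19 past 4-fold on either side.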
